A study of Mus musculus with 6 samples.

Results

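Antigen presentation by the major histocompatibility complex (MHC) was followed through 10 genes chosen by symbol: H2-K1, H2-D1, H2-T23, B2m, Tap1, Tap2, Tapbp, H2-Aa, H2-Ab1 and Cd74. All 10 were among the 22026 gene symbols of the data, and 7 belong to the class I pathway and 3 to the class II pathway. RNA was sequenced from choroid ECs of mice at P5 (postnatal day 5) and P30 (postnatal day 30), with 3 isolations per age and 7 animals pooled in each isolation. The study's methods give the strain (129/B6) and the sexes (male and female) at P30, and do not state them for P5. The ECs, which line the choroid vessels behind the RPE (retinal pigment epithelium), were labelled in the living animal with an antibody to VE-Cadherin and sorted from digested RPE/choroid. The samples differed by age, and with it by handling, since per the study's methods the P5 mice were anaesthetized in another way and given a smaller antibody dose than the P30 mice, so age and handling cannot be told apart. A group stands for pools of animals and not for single mice.

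Class I molecules are found on nearly all nucleated cells and hold peptides from proteins made inside the cell, which CD8+ T cells inspect. Their heavy chain pairs with a light chain, B2m. Peptides pumped into the endoplasmic reticulum by TAP are then loaded with the help of tapasin. Class II molecules hold peptides from material taken up by the cell, are recognized by CD4+ T cells and are made mainly by dendritic cells, B cells and macrophages. Interferon-gamma can induce both classes in ECs.

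Of the 10 genes, 8 lie on mouse chromosome 17, in the MHC, between 34052844 and 36169800 of mm9 (2.12 Mb). In order along the chromosome these are Tapbp (34052844 to 34066235), H2-K1 (34132962 to 34137278), Tap1 (34324498 to 34334170), Tap2 (34340472 to 34353266), H2-Ab1 (34400154 to 34406363), H2-Aa (34406276 to 34424772), H2-D1 (35399675 to 35404444) and H2-T23 (36166718 to 36169800). B2m lies on chromosome 2 (121973422 to 121978819) and Cd74 on a further chromosome. H2-Ab1 and H2-Aa point toward each other and their annotated ends overlap by 88 bases, where reads cannot be told apart without strand, and the strand setting of the counting is not given in the sources used here.

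The promoters of MHC genes are known for an X box and a Y box at a set distance, which are bound by the RFX complex, a CREB/ATF factor and NF-Y. They are shown for 5 of the genes, the light chain, 3 class I heavy chains and a class II chain, because the elements and their spacing can be compared between the classes there. Each is the stretch of 250 bases before the gene start from RefSeq (GRCm38.p6), on the strand of the gene, at chr17:34000334-34000583 for H2-K1, chr17:35262844-35263093 for H2-D1, chr17:36032702-36032951 for H2-T23, chr2:122147437-122147686 for B2m and chr17:34287824-34288073 for H2-Aa. Capitals mark TGACG (core of the X2 box), CCAAT or its reverse ATTGG (core of the Y box), the interferon response core (GAAA, any 2 bases, GAAA) or its reverse and GGGGATTCC (an NF-kB site).
H2-K1: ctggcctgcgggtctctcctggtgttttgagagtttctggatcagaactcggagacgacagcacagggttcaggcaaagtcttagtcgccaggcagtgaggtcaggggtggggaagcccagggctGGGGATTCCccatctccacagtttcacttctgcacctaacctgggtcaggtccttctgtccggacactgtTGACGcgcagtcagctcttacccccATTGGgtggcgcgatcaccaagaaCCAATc
H2-D1: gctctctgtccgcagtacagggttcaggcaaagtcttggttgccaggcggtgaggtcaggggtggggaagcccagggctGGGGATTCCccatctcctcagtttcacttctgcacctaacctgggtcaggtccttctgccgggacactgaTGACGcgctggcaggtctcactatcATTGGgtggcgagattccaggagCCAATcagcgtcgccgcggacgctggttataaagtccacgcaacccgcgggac
H2-T23: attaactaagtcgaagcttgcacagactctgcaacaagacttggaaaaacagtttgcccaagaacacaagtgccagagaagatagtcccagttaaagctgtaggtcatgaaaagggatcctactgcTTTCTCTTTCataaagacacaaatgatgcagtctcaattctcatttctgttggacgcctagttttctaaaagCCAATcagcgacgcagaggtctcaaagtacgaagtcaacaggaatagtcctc
B2m: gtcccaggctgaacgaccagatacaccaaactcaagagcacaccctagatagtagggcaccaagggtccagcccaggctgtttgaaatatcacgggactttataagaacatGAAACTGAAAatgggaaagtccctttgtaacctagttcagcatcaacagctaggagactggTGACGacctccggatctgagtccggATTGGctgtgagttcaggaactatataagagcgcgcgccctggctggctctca
H2-Aa: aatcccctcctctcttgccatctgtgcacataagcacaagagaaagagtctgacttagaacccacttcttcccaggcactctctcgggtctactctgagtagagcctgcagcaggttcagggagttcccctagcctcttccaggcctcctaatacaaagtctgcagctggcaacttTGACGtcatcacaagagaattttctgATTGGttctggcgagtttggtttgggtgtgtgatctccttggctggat

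A promoter was found for 7 of the 10 genes, with Cd74 not searched. CCAAT, searched on both strands, stood in all 7, against 33.8% of 32851 promoters of the same length. TGACG, searched likewise, stood in 5 of the 7 (H2-K1, H2-D1, B2m, Tap1 and H2-Aa), against 17.8%. In H2-K1, H2-D1 and B2m, ATTGG began 25 bases after the start of TGACG, and in H2-Aa it began 26 bases after. That arrangement, at 25 or 26 bases on the strand of the gene, was held by 4 of the 7 genes and by 0.0822% of all promoters. The distance was chosen after these sequences had been seen, so the share is a description. GGGGATTCC stood in H2-K1 and H2-D1, against 0.213% of promoters, and the interferon response core in B2m and H2-T23, against 2.98%. In H2-Aa, TGACG overlaps its own reverse. A match is a match of these exact letters, so other forms of an element were not counted, and binding was not measured.

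Expression was deposited as FPKM, which scales fragment counts by transcript length and, here, by the upper quartile of each library. Levels of different genes can thus be compared, with less certainty where genes share sequence. The ages were set against each other in limma as log2(FPKM + 1) over the 12481 genes whose mean FPKM reached 5 at 1 or both ages, and all 10 were among them. A gene was called when its adjusted p (Benjamini-Hochberg) was under 0.01 and mean FPKM + 1 differed at least 2-fold. Of the 10 genes, 5 were called higher at P30 (H2-T23, Tap2, Tapbp, H2-Aa and H2-Ab1) and 0 were called lower, since all 10 had a positive log2 fold change, against 5.89% of all tested genes called higher and 5.82% called lower. In 9 of the 10, the P30 isolations all exceeded the P5 isolations, against 22% (2748) of all tested genes, and the exception was Tap1. The median log2 fold change, P30 minus P5, was 1.30 over the 10 genes and -0.10 over all tested genes. In a bulk sample, fewer cells of a type and less RNA per cell cannot be told apart.

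**Figure D1:**
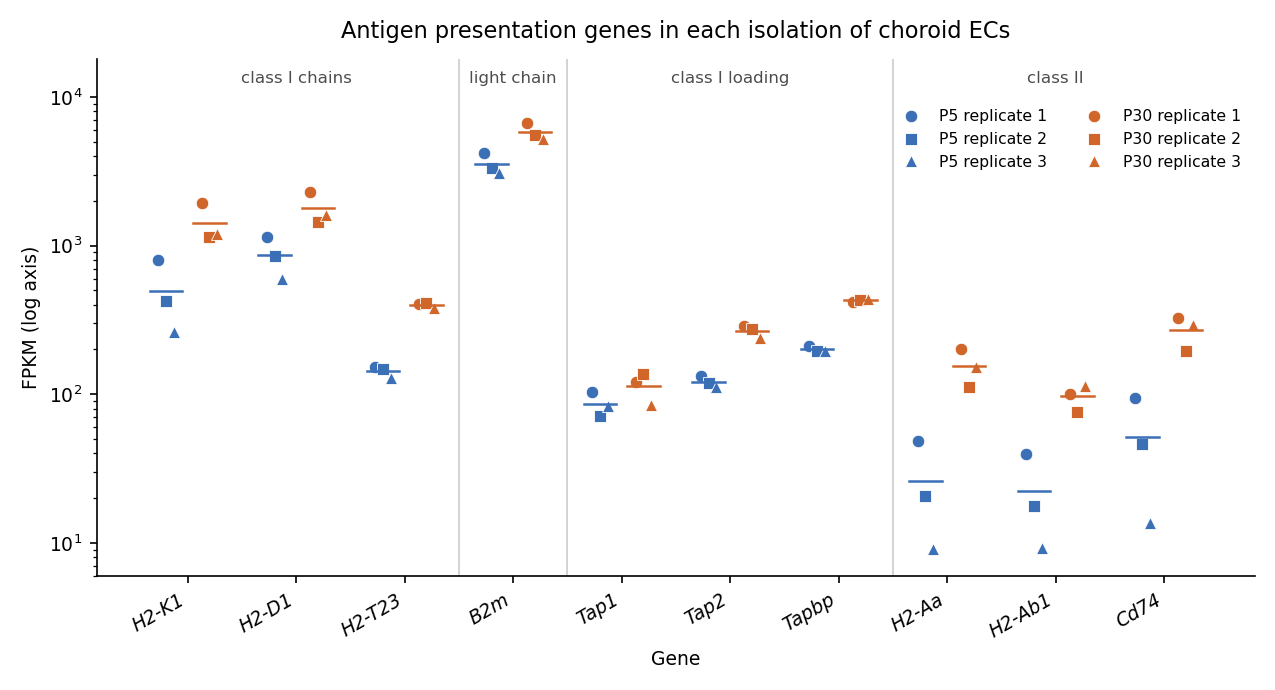
FPKM of the 10 genes (log axis) in each P5 and P30 isolation, with symbols for replicates and a line at the mean of each age. At P5 the class II genes lie lowest and are the most spread, and Tap1 is the gene in which the ages overlap.

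B2m encodes the light chain shared by class I molecules and had the highest FPKM of the 10 genes at both ages. Its FPKM was 4186, 3341 and 3061 over P5 replicates 1 to 3 and 6734, 5578 and 5208 over P30 replicates 1 to 3. It ranked 13 among all genes by mean FPKM at P5 and 16 at P30. The ages did not overlap, but the difference missed the threshold narrowly (log2 fold change 0.73 ± 0.16 (SE), limma adjusted p = 0.0115) and was under 2-fold, at 1.66-fold in mean FPKM. With quantile normalization its log2 fold change was -0.16, the only alternative that reversed it. With FPKM scaled to the same sum it was 0.56, and scaled to the endothelial markers it was 0.34. The direction of B2m thus depends on whether quantile normalization is used.

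H2-K1 and H2-D1 encode the heavy chains of the classical class I molecules. H2-K1 had 805, 422 and 263 over P5 replicates 1 to 3 and 1926, 1136 and 1201 over P30 replicates 1 to 3. H2-D1 had 1149.6, 853 and 596 in the P5 isolations and 2309, 1436 and 1601 in the P30 isolations. In both genes replicate 1 was the highest of its age, and the lowest P30 isolation stood above the highest P5 isolation, by 1.41 times for H2-K1 and 1.25 times for H2-D1. Neither was called: the log2 fold change was 1.62 for H2-K1 (SE 0.39, limma adjusted p = 0.0161) and 1.06 for H2-D1 (SE 0.27, limma adjusted p = 0.0181). The P5 isolations were spread over 3.06 times in H2-K1, a log2 SD of 0.81, wider than in 98% of the tested genes. Without P5 replicate 1, H2-K1 was called, at 2.05 on the log2 scale (limma adjusted p = 0.00574).

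H2-T23 encodes Qa-1, a nonclassical class I chain that presents peptides from the leader sequences of other class I chains to NK cell receptors. Its FPKM was 153, 149 and 130 over P5 replicates 1 to 3 and rose to 405, 412 and 381 over P30 replicates 1 to 3 (log2 fold change 1.47 ± 0.10 (SE), limma adjusted p = 0.000167). The isolations of an age were close to each other, within 1.18 times at P5 and 1.08 times at P30. H2-T23 was called under all 16 alternatives that were tried, with log2 fold changes from 1.08 to 1.52.

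Class I heavy chain genes share sequence, and reads from shared stretches could have been assigned to any of them. Of the windows of 50 bases in the longest annotated transcript, 8.87% in H2-K1, 14.3% in H2-D1 and 14.8% in H2-T23 also occurred in a transcript of another gene, with H2-Q2 among the genes that shared most in each case. The share was 98.4% in H2-T9 and 44.2% in H2-T22, so the values of these less abundant genes are uncertain. It was 0 windows in B2m, H2-Aa, H2-Ab1 and Cd74. Tap1 and Tap2 shared 25 windows with each other.

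Tap1 and Tap2 encode the paired subunits of the TAP peptide pump and lie beside each other in the genome. Tap2 had 132.1, 119.5 and 112.6 over P5 replicates 1 to 3 and rose to 286, 275 and 239 over P30 replicates 1 to 3 (log2 fold change 1.13 ± 0.11 (SE), limma adjusted p = 0.000506). Tap1 had 103, 71.5 and 83.0 in the P5 isolations and 121, 136 and 84.9 in the P30 isolations. P30 replicate 3 was thus below P5 replicate 1, and the Tap1 difference did not exceed the scatter of the isolations (log2 fold change 0.39 ± 0.21 (SE), limma adjusted p = 0.173, with a 95% interval from -0.10 to 0.88). The ratio of Tap1 to Tap2 within an isolation was 0.783, 0.598 and 0.737 at P5 and 0.422, 0.496 and 0.355 at P30, so that every P30 ratio was below every P5 ratio.

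Tapbp encodes tapasin, which holds empty class I molecules at TAP while they are loaded. Its FPKM was 212, 195 and 194 over P5 replicates 1 to 3 and rose to 419, 430 and 438 over P30 replicates 1 to 3 (log2 fold change 1.10 ± 0.09 (SE), limma adjusted p = 0.000255). At P30 the isolations lay within 1.04 times of each other. Both Tapbp and Tap2 lie near the 2-fold limit. When the FPKM of each sample was scaled to the same sum, the log2 fold change was 0.93 for Tapbp and 0.96 for Tap2, under 2-fold in mean FPKM + 1, and neither was called. With FPKM scaled to the endothelial markers, an alternative added after the data were seen, both were again under the limit (0.71 for Tapbp and 0.74 for Tap2). Scaled to the same sum, the median over all tested genes was -0.27 in place of -0.10, and scaled to the endothelial markers it was -0.48.

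H2-Aa and H2-Ab1 encode the alpha and beta chains of the class II molecule I-A. H2-Aa had 48.5, 20.8 and 9.10 over P5 replicates 1 to 3 and 202, 112 and 151 over P30 replicates 1 to 3. It rose by 2.78 ± 0.53 (SE) on the log2 scale (limma adjusted p = 0.00647), from 26.1 ± 20.2 (SD, n = 3) to 155 ± 45.2 (SD, n = 3). H2-Ab1 had 39.4, 17.8 and 9.29 in the P5 isolations and 101, 75.4 and 114 in the P30 isolations, and rose by 2.28 ± 0.45 (SE) on the log2 scale (limma adjusted p = 0.00767). The P5 isolations of H2-Aa were spread over 5.33 times, more than in 99.2% of the tested genes by log2 SD, and the P30 isolations over 1.81 times. Both calls were near the threshold. They were lost when any isolation other than P5 replicate 1 was left out, with adjusted p between 0.0139 and 0.0271 for H2-Aa and between 0.0162 and 0.032 for H2-Ab1 from limma.

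Cd74 encodes the invariant chain, which fills the groove of new class II molecules and guides them to endosomes. Its FPKM was 95, 46.3 and 13.7 over P5 replicates 1 to 3 and 327, 196 and 292 over P30 replicates 1 to 3. The ages did not overlap, with the lowest P30 isolation 2.06 times the highest P5 isolation, but the difference was not called (log2 fold change 2.72 ± 0.61 (SE), limma adjusted p = 0.0122). Without P5 replicate 1 it was, at 3.34 on the log2 scale (limma adjusted p = 0.00608). The P5 isolations of Cd74 were spread over 6.96 times, more than in 99.5% of the tested genes by log2 SD.

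Cd74 stood at 1.08, 1.2 and 0.742 times the sum of H2-Aa and H2-Ab1 in P5 replicates 1, 2 and 3, and at 1.08, 1.04 and 1.10 times that sum in P30 replicates 1, 2 and 3, so this ratio overlapped between the ages. Class II chains were a small share of the class I level. The sum of H2-Aa and H2-Ab1 was 4.49%, 3.03% and 2.14% of the sum of H2-K1 and H2-D1 at P5 and 7.15%, 7.29% and 9.48% at P30, and every P30 share was above every P5 share. H2-K1 was 0.545 ± 0.137 (SD, n = 3) of H2-D1 at P5 and 0.792 ± 0.042 (SD, n = 3) at P30, without overlap. These ratios are descriptions and were not tested.

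**Figure D2:**
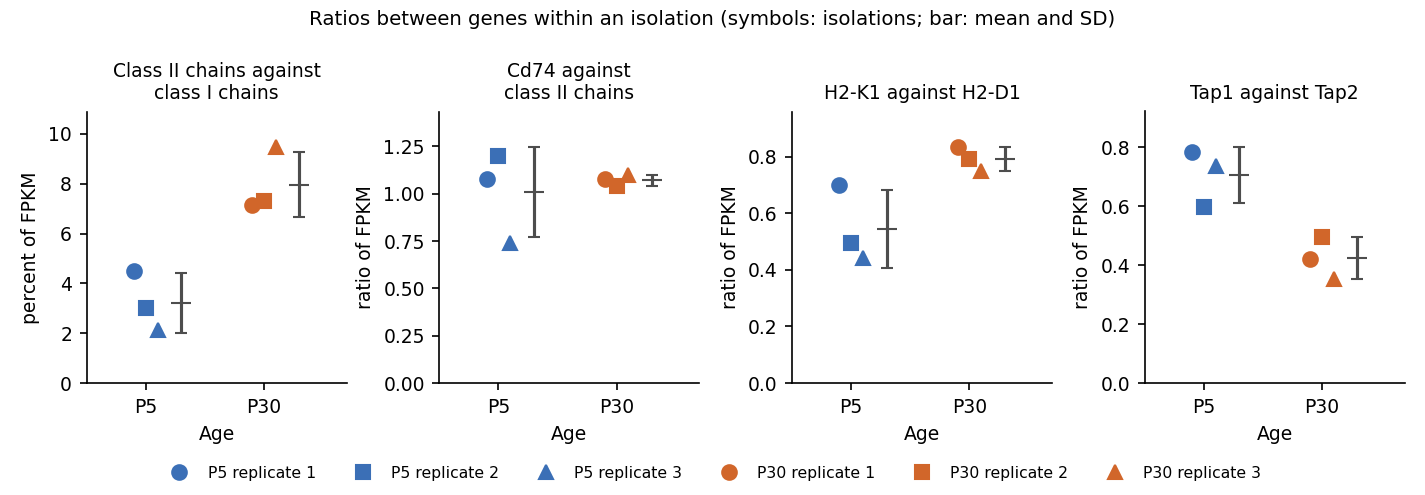
Ratios of FPKM between genes of the same isolation at P5 and P30, with a symbol per isolation and the mean and SD beside it. The share of class II chains against class I chains was at least 7.15% in the P30 isolations and at most 4.49% in the P5 isolations, while Cd74 against the class II chains overlapped between the ages.

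By mean FPKM, the order at P5 was B2m, H2-D1, H2-K1, Tapbp, H2-T23, Tap2, Tap1, Cd74, H2-Aa and H2-Ab1. The ranges of the isolations overlapped between H2-D1 and H2-K1, between H2-T23 and Tap2, between Tap1 and Cd74, between Cd74 and H2-Aa, and between H2-Aa and H2-Ab1, so the order within these pairs does not exceed the spread. At P30 the first 5 genes stood in that order, and Cd74 had moved above Tap2 and H2-Aa above Tap1. At P30 the ranges overlapped between H2-D1 and H2-K1, between Cd74 and Tap2, between H2-Aa and Tap1, and between Tap1 and H2-Ab1.

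At P5, replicate 1 was above replicate 2 and replicate 2 above replicate 3 in 9 of the 10 genes, against 23.6% of the tested genes, with Tap1 as the exception. The summed FPKM of 7 pericyte markers went in the same order, at 1748, 919 and 476 in P5 replicates 1, 2 and 3. So did the sums of smooth muscle markers (134, 96.2 and 76.2), melanocyte markers (457, 118 and 97.0) and the low T and NK cell markers (10.9, 6.59 and 6.46). The sums of the endothelial, myeloid, dendritic cell, B cell, RPE, photoreceptor, fibroblast and erythroid markers did not go in that order at P5. At P30 the pericyte sum was 1880, 6375 and 3894 in replicates 1, 2 and 3, while Cd74, H2-Aa and H2-K1 were lowest in replicate 2. The smooth muscle sum was highest in P30 replicate 2, the melanocyte sum lowest in replicate 3 and the T and NK cell sum lowest in replicate 2. The part of RNA from these cell types in the values was not tested.

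Since dendritic cells, B cells and macrophages make class II molecules, their markers were read in the same isolations. Of 17 macrophage and myeloid markers, 6 fell, against 5.82% of all tested genes called lower, 0 were called higher, and in 11 the P30 isolations all lay below the P5 isolations, against 33.0% of all tested genes. Their summed FPKM was between 2045 and 2543 at P5 and between 526 and 1650 at P30. By mean FPKM over all 6 samples, the highest markers were the complement genes C1qb, with 289 ± 39.4 at P5 and 112 ± 71.1 at P30 (SD, n = 3, limma adjusted p = 0.049), and C1qc, with 267 ± 57.8 and 116 ± 75.8 (SD, n = 3, limma adjusted p = 0.0567), and Lyz2, which encodes lysozyme, with 204 ± 65.2 and 254 ± 128 (SD, n = 3, limma adjusted p = 0.686), none of them called. The 6 that fell were Ptprc, Emr1, Aif1, Fcer1g, Cx3cr1 and Mrc1, with Ptprc, the pan-leukocyte CD45, at 27.1 ± 1.51 and 7.82 ± 0.187 (SD, n = 3, limma adjusted p = 0.000732) and Mrc1 at 255 ± 15.7 and 44.7 ± 36.7 (SD, n = 3, limma adjusted p = 0.00905). At P30, replicate 1 was the highest and replicate 2 the lowest in the myeloid sum, in Cd74 and in H2-Aa. Between the ages the myeloid sum was lower at P30 in every isolation and the class II genes higher, while the orders of the isolations matched in part. H2-Ab1 and H2-Eb1 were highest in P30 replicate 3, unlike the myeloid sum, and at P5 the myeloid sum was 2496, 2543 and 2045 in replicates 1, 2 and 3, where the class II genes went from replicate 1 as the highest to replicate 3 as the lowest. The part of myeloid RNA in the class II values was not tested.

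Of 9 dendritic cell markers, Flt3, Cd209a and Ccl22 were listed at 0 in all 6 samples, and Itgax, Xcr1 and Ccr7 were listed at 0 at P5 and at no more than 0.71, 1.2 and 3.76 at P30. Zbtb46, a transcription factor that ECs also express, had 117 ± 4.95 at P5 and 150 ± 17.7 at P30 (SD, n = 3) and, with Clec9a (29.1 ± 5.38 and 38.2 ± 12.0, SD, n = 3), made up most of the summed FPKM of the list, which was between 141 and 160 at P5 and between 166 and 218 at P30. Batf3 had 7.30 ± 2.75 at P5 and 1.12 ± 1.95 at P30 (SD, n = 3). Cd79b, the highest B cell marker at P5, had 6.07 ± 1.86 at P5 and 1.35 ± 1.39 at P30 (SD, n = 3). Cd79a, at most 0.70 at P5, was the highest at P30, between 1.47 and 2.99. Ms4a1 and Pax5 were listed at 0 in every isolation except P30 replicate 3, at 1.52 and 1.54. That isolation had the highest H2-Ab1 and H2-Eb1, whereas H2-Aa and Cd74 were highest in P30 replicate 1. Of 7 T and NK cell markers, 5 were listed at 0 in all samples, Cd3e and Cd8a among them, Klrb1c had at most 0.65, and Cd4 was the highest, with at most 10.2. The defining endothelial markers were present in every isolation, with a summed FPKM between 18921 and 19349 at P5 and between 26407 and 31958 at P30. Plvap (4692 to 11589.8 in mean FPKM) and Emcn (3002 to 5523) made up most of the difference, whereas Cdh5, which encodes the VE-Cadherin used for the sort, had 2971 ± 95.5 at P5 and 1885 ± 52.4 at P30 without overlap (SD, n = 3, limma adjusted p = 0.00205, under 2-fold), and Pecam1 had 1611 ± 70.8 and 1421 ± 167 (SD, n = 3). Several lists of other cell types had a higher sum in every P30 isolation. The sums were 65.4 to 145 at P5 and 498 to 3831 at P30 for RPE, 725 to 1193 and 1777 to 4488 for fibroblasts, 76.2 to 134 and 199 to 848 for smooth muscle, 2.21 to 8.49 and 41.8 to 361 for photoreceptors, and 476 to 1748 and 1879.8 to 6375 for pericytes. The part of these cell types in the MHC values was not tested.

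**Figure D3:**
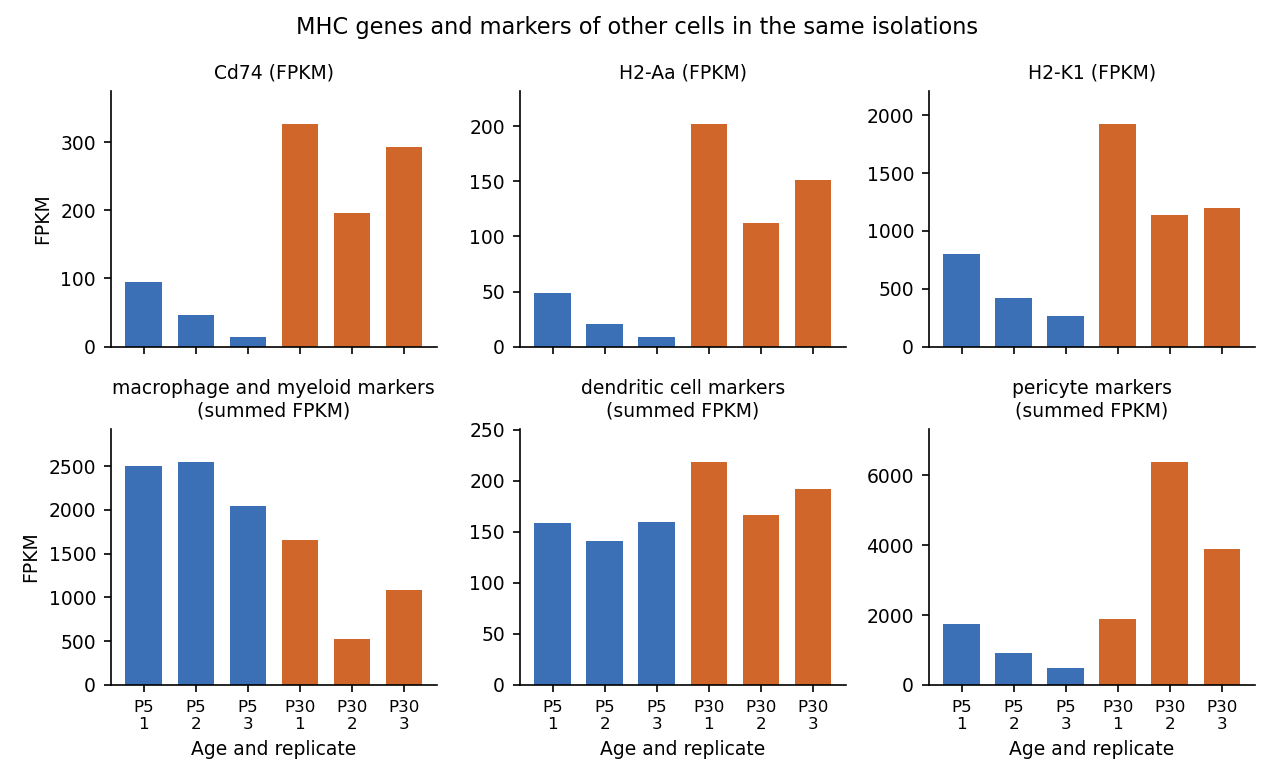
FPKM of Cd74, H2-Aa and H2-K1 (upper row) and summed FPKM of the macrophage and myeloid, dendritic cell and pericyte markers (lower row) in each isolation, with bars from 0. The myeloid sum is at most 1650 in the P30 isolations and at least 2045 at P5, while Cd74 is at least 196 at P30 and at most 95 at P5.

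Beyond the 10 genes, 83 further genes of the pathway were followed in 6 lists, of which 78 were in the data and 63 were tested. Of these 63, 6 (9.52%) were called higher and 4 (6.35%) lower at P30, near the 5.89% and 5.82% of all tested genes, and their median log2 fold change was -0.04 against -0.10. H2-Eb1, the beta chain of the class II molecule I-E, came closest to the class II genes. Its FPKM was 15.2, 7.17 and 1.25 over P5 replicates 1 to 3 and 59.5, 39.3 and 71.2 over P30 replicates 1 to 3 (log2 fold change 3.07 ± 0.66 (SE), limma adjusted p = 0.0102, not called). H2-Ea-ps, named after its values were seen, was listed at 0 in all samples.

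Of the 9 tested genes of the class II list, 1 (11.1%) was called higher and 1 (11.1%) lower, against 5.89% and 5.82% of all tested genes. Ctsl, encoding cathepsin L, a protease that can trim the invariant chain, rose from 436 ± 54.7 to 1133 ± 112 (SD, n = 3, log2 fold change 1.38 ± 0.12 (SE), limma adjusted p = 0.000366). With FPKM scaled to the endothelial markers, the log2 fold change of Ctsl was 0.99 and it was not called. Lgmn, encoding the lysosomal asparaginyl endopeptidase, fell from 390 ± 11.5 to 193 ± 14.3 (SD, n = 3, log2 fold change -1.01 ± 0.09 (SE), limma adjusted p = 0.000395). Lgmn was just under 2-fold without P5 replicate 2 (-0.99 on the log2 scale) or P30 replicate 3 (-0.95). Ctss, the cathepsin that trims the invariant chain in dendritic cells and B cells, was not called, with 163 ± 17.5 at P5 and 80.2 ± 33.0 at P30 (SD, n = 3, log2 fold change -1.09 ± 0.27 (SE), limma adjusted p = 0.0178). H2-DMa, which with H2-DMb1 exchanges the invariant chain fragment for peptide, had 13.9 ± 7.48 and 14.9 ± 6.29 (SD, n = 3, limma adjusted p = 0.854). H2-DMb1 had 3.40 ± 2.72 and 10.4 ± 4.06 (SD, n = 3, limma adjusted p = 0.0649), and Ifi30, the thiol reductase of endosomes, had 93.9 ± 2.81 and 160.5 ± 40.8 (SD, n = 3, limma adjusted p = 0.0149), neither called and neither overlapping between the ages. Ctss, H2-DMa, H2-DMb1 and Ifi30 fell outside the rule for named genes and were chosen after their values were seen.

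Among 17 further class I and class I-like heavy chains tested, 0 were called higher by limma and 1 (5.88%) was called lower, against 5.89% and 5.82% of all tested genes. At an unadjusted p under 0.05 there were 6 higher and 2 lower, together 8 of 17, against 49.5% of all tested genes. Cd1d1, which presents lipids to NKT cells, fell from 81.3 ± 2.54 to 27.3 ± 5.37 (SD, n = 3, log2 fold change -1.56 ± 0.16 (SE), limma adjusted p = 0.000552). Hfe, which regulates iron uptake, had 86.3 ± 2.35 and 162 ± 22.5 (SD, n = 3), under 2-fold (log2 fold change 0.89, limma adjusted p = 0.00183). Fcgrt, the neonatal Fc receptor that recycles IgG and also pairs with B2m, had the highest FPKM of this list and overlapped between the ages, with 478 ± 67.8 and 605 ± 77.2 (SD, n = 3). Its log2 fold change was 0.34, and -0.05 when FPKM was scaled to the endothelial markers.

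Of 10 further genes of class I loading, 1 was called higher and 0 lower by limma, against 5.89% and 5.82% of all tested genes. At an unadjusted limma p under 0.05 there were 1 higher and 5 lower, against 49.5% of all tested genes in either direction. In 6 of the 10 the P30 isolations all lay below the P5 isolations, against 33.0% of all tested genes. In 1 they all lay above, against 22%. Tapbpl, encoding the tapasin relative TAPBPR, rose from 24.3 ± 0.5 to 49.6 ± 4.28 (SD, n = 3, log2 fold change 1.0 ± 0.14 (SE), limma adjusted p = 0.00174). It lost the call under 8 alternatives, among them without any 1 of the P5 isolations (limma adjusted p from 0.0109 to 0.0137) and without P30 replicate 2 (0.93 on the log2 scale, under 2-fold). Calr and Pdia3, general chaperones of the endoplasmic reticulum, were not called, and every P30 value lay below every P5 value. Calr had 1345.0 ± 132.2 and 1046 ± 110 (SD, n = 3, limma adjusted p = 0.051) and Pdia3 had 1263 ± 54.6 and 980 ± 162 (SD, n = 3, limma adjusted p = 0.0612). Of the 5 immunoproteasome genes, which encode the subunits that replace those of the standard proteasome and their activator, 0 were called by limma. All 5 were higher at an unadjusted p under 0.05, which 49.5% of all tested genes reached in either direction, and in 3 the P30 isolations all exceeded the P5 isolations, against 22% of all tested genes. Psmb8 had 108 ± 9.84 and 174 ± 24.2 (SD, n = 3, log2 fold change 0.67 ± 0.13 (SE), limma adjusted p = 0.00726), under 2-fold, and Psme1 had 229 ± 4.49 and 326 ± 46.2 (SD, n = 3, limma adjusted p = 0.0163). With FPKM scaled to the endothelial markers, the log2 fold change was 0.29 for Psmb8 and 0.11 for Psme1.

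**Figure D4:**
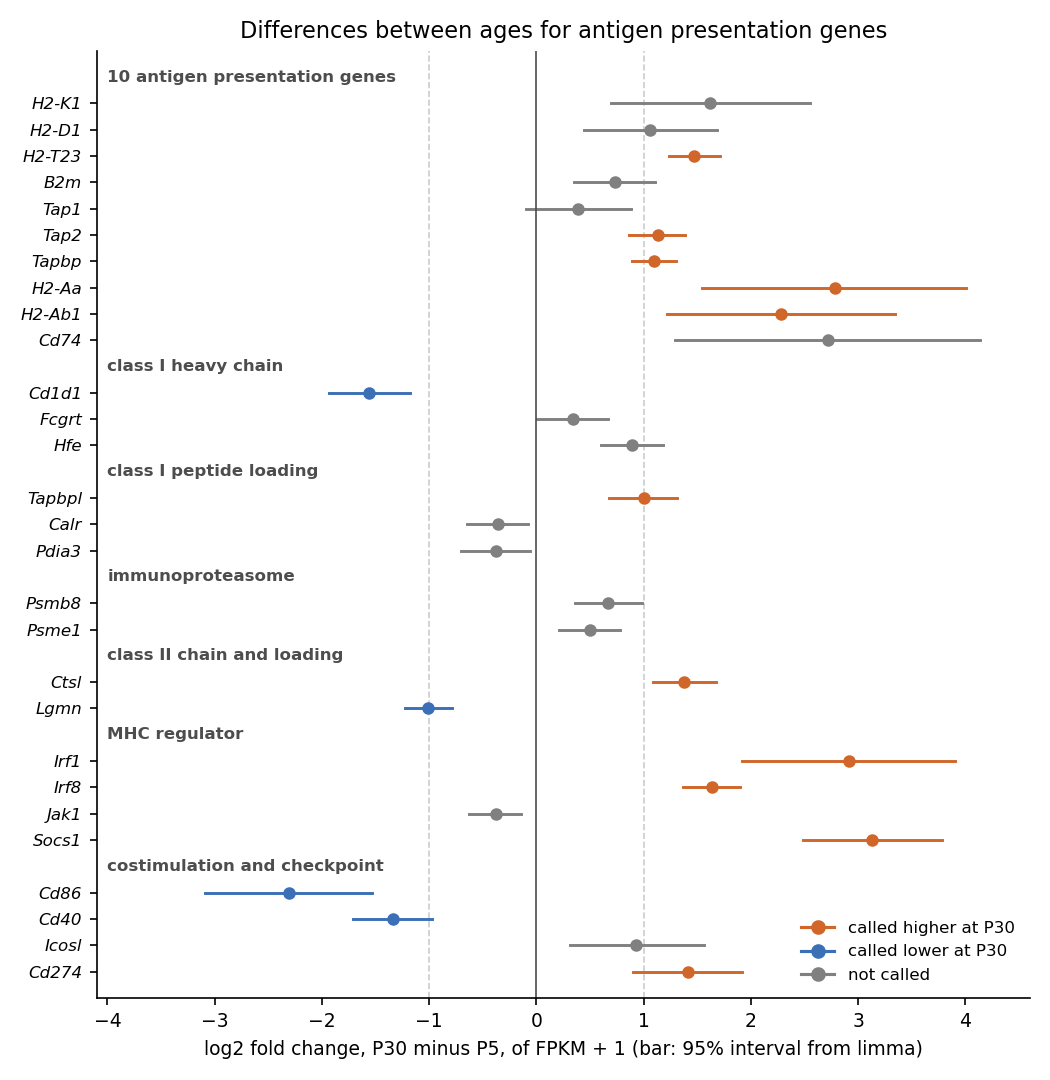
Log2 fold change, P30 minus P5, of FPKM + 1 for the 10 genes and for the other genes named by rule in each list, with bars for the 95% interval from limma and dashed lines at 2-fold. The class II genes have the highest values of the 10 and the widest intervals, and the genes called lower are Cd1d1, Lgmn, Cd86 and Cd40.

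Among 17 regulators tested, 3 rose, against 5.89% of all tested genes, and 0 were called lower by limma, against 5.82%. At an unadjusted limma p under 0.05 there were 4 higher and 7 lower, against 49.5% of all tested genes in either direction. In 4 the P30 isolations all exceeded the P5 isolations, against 22% of all tested genes. In 7 they all lay below, against 33.0%, and the median log2 fold change was -0.09. Irf1, an interferon-induced transcription factor that acts on class I promoters and on Ciita, had 172, 117 and 142 over P5 replicates 1 to 3 and rose to 1395, 1731 and 512 over P30 replicates 1 to 3 (log2 fold change 2.91 ± 0.42 (SE), limma adjusted p = 0.0022). Without P5 replicate 2 or without P5 replicate 3 its adjusted p was 0.0129 or 0.0147 from limma. Socs1, a feedback inhibitor of interferon signalling, rose from 26.8 ± 7.64 to 244 ± 78.7 (SD, n = 3, log2 fold change 3.13 ± 0.28 (SE), limma adjusted p = 0.000331). Irf8 rose from 44.7 ± 3.90 to 141 ± 5.48 (SD, n = 3, log2 fold change 1.64 ± 0.11 (SE), limma adjusted p = 0.000168). Among the P30 isolations, Irf1 was lowest in replicate 3 and Cd74 in replicate 2, so they did not share an order.

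The named transactivators of the MHC were low. Ciita, without which class II genes are not induced, had 1.59, 0.66 and 0.37 over P5 replicates 1 to 3 and 1.65, 1.69 and 2.29 over P30 replicates 1 to 3, below the minimum for the fit, though the P30 isolations all exceeded the P5 isolations. Nlrc5, the class I counterpart, had 7.82 ± 2.40 and 10.3 ± 4.34 (SD, n = 3, limma adjusted p = 0.52). Both were chosen after their values were seen. Jak1 had 353 ± 6.16 and 272 ± 29.6 (SD, n = 3, limma adjusted p = 0.025).

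T cells also need a signal from costimulatory molecules. Of the 5 tested genes of a list of costimulatory and inhibitory molecules, 1 rose and 2 fell, against 5.89% and 5.82% of all tested genes. Cd274, encoding the inhibitory ligand PD-L1, rose from 11.1 ± 1.47 to 31.3 ± 6.71 (SD, n = 3, log2 fold change 1.41 ± 0.22 (SE), limma adjusted p = 0.00291). Cd40 fell from 99.3 ± 3.42 to 39.1 ± 8.08 (SD, n = 3, log2 fold change -1.34 ± 0.16 (SE), limma adjusted p = 0.000964) and Cd86 from 23.5 ± 4.64 to 4.12 ± 2.0 (SD, n = 3, log2 fold change -2.31 ± 0.33 (SE), limma adjusted p = 0.0022). Icosl had 20.6 ± 4.66 and 41.0 ± 13.6 (SD, n = 3, limma adjusted p = 0.0297). Without any 1 of the P5 isolations neither Cd274 (limma adjusted p from 0.0125 to 0.0162) nor Cd86 (from 0.0126 to 0.0188) was called. The 6 myeloid markers counted above fell together with Cd40 and Cd86, and their part in this was not tested.

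The tested genes whose profile over the 6 samples lay nearest to the mean of H2-Aa, H2-Ab1 and Cd74, by the root mean square difference of centred log2(FPKM + 1), were A4galt (0.32), H2-Eb1 (0.33), Hopx (0.37), Pcp4l1 (0.37) and Clic5 (0.39). A4galt, which encodes the enzyme that makes the glycolipid Gb3, had 12.1, 9 and 4.58 over P5 replicates 1 to 3 and 65.1, 41.4 and 65.0 over P30 replicates 1 to 3. Nearest to the mean of H2-K1, H2-D1 and B2m were Slc25a34 (0.09), Pcdhb4 (0.10), Pcdhb13 (0.15), Ccbl1 (0.15) and Slc35f2 (0.17). These are the closest of 12481 genes over 6 samples, and such closeness is a description of the values alone.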

How the data were processed

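Choroid ECs of 3 isolations at P5 and 3 at P30 were sequenced. The authors deposited FPKM per gene, made with TopHat and Cufflinks, with correction for GC content and upper-quartile normalization on mm9. The submitters' processing notes also name CASAVA 1.8.2 and FastQC, and the annotation and the strand setting of the counting are not given in the sources used here. Since files hold FPKM only, the depth is unknown. Low values showed no steps of whole reads (at most 3.56% of low-FPKM genes fell in 1 bin of the log2 ratio between samples).

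Values were tested as log2(FPKM + 1) with limma 3.58.1 (R 4.3.3, trended eBayes, no replicate block) over the genes whose mean FPKM reached 5 at P5 or P30, using Benjamini-Hochberg adjustment over 12481 genes. Calls needed an adjusted p under 0.01 and 2-fold in mean FPKM + 1. Other values were computed in Python 3.11.15 with pandas 2.3.3 and numpy 2.4.6, and plotted with matplotlib 3.10.9. The fit was tested on simulated data. FPKM sums were between 1432700 and 1734639 per sample, and 33.4% to 37.3% of genes were at 0. P-values measure the spread between isolations. The genes and lists were chosen with earlier results of these data known. Named were the 10 genes, the called genes and the 2 with the highest mean of each other list of antigen presentation genes. The 3 highest markers of each leukocyte list and the 5 nearest profiles were named too. Genes outside this rule are marked as such or are markers listed at or near 0. Also outside it are the myeloid markers called lower and the endothelial markers Plvap, Emcn, Cdh5 and Pecam1. Alternatives covered the pseudocount, the filter, the trend, the fold limit, the scaling, the replicate block and leaving out each isolation. Positions are from GENCODE (mm9) and promoters from RefSeq (GRCm38.p6), with the most downstream start where several were given. Some genes of the lists are not reported here.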

Additional observations from a re-analysis of the deposited data

How the results depend on the processing

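The log2 fold changes of the 10 genes stayed positive under all 16 alternatives, except B2m with quantile normalization (-0.16). That of Tap1 was 0.22 with FPKM scaled to the same sum (limma adjusted p = 0.354). Scaled to the endothelial markers it was 0.01 (limma adjusted p = 0.984), so no difference in Tap1 was left there. The count of the 10 called higher was 5, and it was 3 with no filter on low values, with eBayes without a trend, with FPKM scaled to the same sum and with FPKM scaled to the endothelial markers (added after the data were seen). Leaving out 1 isolation gave 3 to 7. It was 7 without P5 replicate 1 and 3 without any other isolation, where H2-Aa and H2-Ab1 lost their calls. With a replicate block it was 6, since H2-K1 and H2-D1 were called and H2-Ab1 was not (adjusted p = 0.0104 from limma). Over all tested genes, same-numbered isolations did not deviate together (correlations -0.0618, -0.0905 and -0.0305), so no pairing by number was seen. A pairing in part of the genes was not tested. Over all genes, 735 were called higher and 726 lower. Leaving out 1 isolation gave 396 to 849 higher and 291 to 754 lower, with the lowest counts without P5 replicate 2 or 3 (404 and 396 higher, 291 and 297 lower) and 427 lower without P5 replicate 1. Scaled to the endothelial markers, 486 were higher and 1777 lower (21.5% of calls higher, against 50.3%), and scaled to the same sum 37.1% of calls were higher. Of the other antigen presentation genes, 6 were called higher and 4 lower. Leaving out 1 isolation gave 3 to 7 higher and 2 to 5 lower, and scaling to the endothelial markers gave 9 lower. Fcgrt was at -0.05 under that scaling. The cause of these changes was not tested. With 3 isolations per age and depth unknown, differences within the spread of Tap1 could not be resolved.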
